A study of Mus musculus with 12 samples.

Results

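The S100, annexin and galectin genes encode 3 families of proteins that bind calcium, membrane lipids or sugars. All protein-coding genes whose symbols begin with S100a, S100b, S100g or S100p, with Anxa and a number, or with Lgals and a number were taken, which gave 39 of the 20983 protein-coding genes among 27179 gene IDs. Of these, 17 were S100 genes, 12 annexins and 8 galectins. The remaining 2, S100pbp and Lgals3bp, match by symbol but encode binding partners of the families and are described apart from them.

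The cells were RelA-/- Rela-DsRed 3T3s, NIH3T3 mouse embryo fibroblasts that lack endogenous RelA (p65 of NF-κB) and carry a fusion of it to a red fluorescent protein. The libraries used were the 3 of the IL-1 group, treated with 0.2 ng/mL IL-1b for 2 h in microfluidic devices. The labels do not say which promoter drives the fusion, whether the line is 1 clone or whether the 3 samples were separate cultures, so their spread may be technical. Tables labelled LPS, PAM and media, 9 in all, were byte for byte identical to that of IL-1 replicate 3 and were not used. Which of these samples the shared table came from was not tested, so replicate 3 is IL-1 by its label only. With 1 group there was no comparison of treatments. The values below are levels in cells labelled as IL-1-treated and do not show an effect of IL-1.

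S100 proteins are small calcium sensors built from a pair of EF-hand motifs. They work as dimers inside the cell, where calcium opens a groove that binds target proteins, and several are also released and act on receptors such as RAGE and TLR4. Annexins bind acidic phospholipids in the presence of calcium through a repeated core domain and take part in membrane traffic, repair and the cortical cytoskeleton. Galectins bind beta-galactosides on glycoproteins and are exported without a signal peptide. The families meet in fixed complexes, such as that of S100A10 with annexin A2.

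The 3 libraries held 17254518 to 18578859 counts. Detection meant at least 1 CPM, the count scaled to a library total of 1000000, in every library, which 10724 of 20983 protein-coding genes (51.1%) reached. Of 12 fibroblast markers 11 were detected, led by Vim, which encodes the intermediate filament vimentin, at 3162 ± 76.6 CPM (SD, n = 3, as for all values below). The median over the 12 was 348 CPM. Thy1 and Postn were low, at 10.2 ± 0.644 and 9.32 ± 3.98 CPM, and Lum, at 0.616 ± 0.528 CPM, was not detected. None of 8 neutrophil, 7 gut epithelial or 5 endothelial markers was detected. Of 8 keratinocyte markers Krt10 was detected at 7.55 CPM, with Krt5 at 0, and of 5 glial markers Mbp at 1.42 CPM. Of 7 macrophage markers 4 were detected, Lyz2, Cd74, Cd68 and Csf1r, at 1.84 to 9.69 CPM, while Ptprc, the pan-leukocyte gene, had 3, 0 and 6 counts.

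Of the 39 genes, 26 (66.7%) were detected, against 51.1% of all protein-coding genes. These were 9 of 17 S100 genes, 9 of 12 annexins, 6 of 8 galectins and both binding partners. The 3 families together took 1.94% ± 0.197 of all counts. Since longer transcripts yield more reads in such libraries, levels of different genes are compared as CPM per kb of merged exons. On that scale 8 family members stood among the 100 highest of 10704 detected protein-coding genes with a known length, and Lgals1 ranked first of all of them, where by CPM without length it ranked 5. Merged exons can be longer than any single transcript: with the longest transcript instead, the level of 10 of the 24 detected family members was over 1.5 times as high, from Anxa11 (1.51 times) to Anxa3 (2.28 times), and S100a6, S100a10, S100a3, Anxa1, Anxa2, Anxa4, Anxa7 and Lgals4 lay between. Both lengths came from GENCODE M21, and the annotation used for counting is not named. The exons counted may thus differ from those measured, which would change levels, ranks and ratios per kb. In bulk RNA, fewer cells that express a gene and less RNA per cell cannot be told apart.

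**Figure D1:**
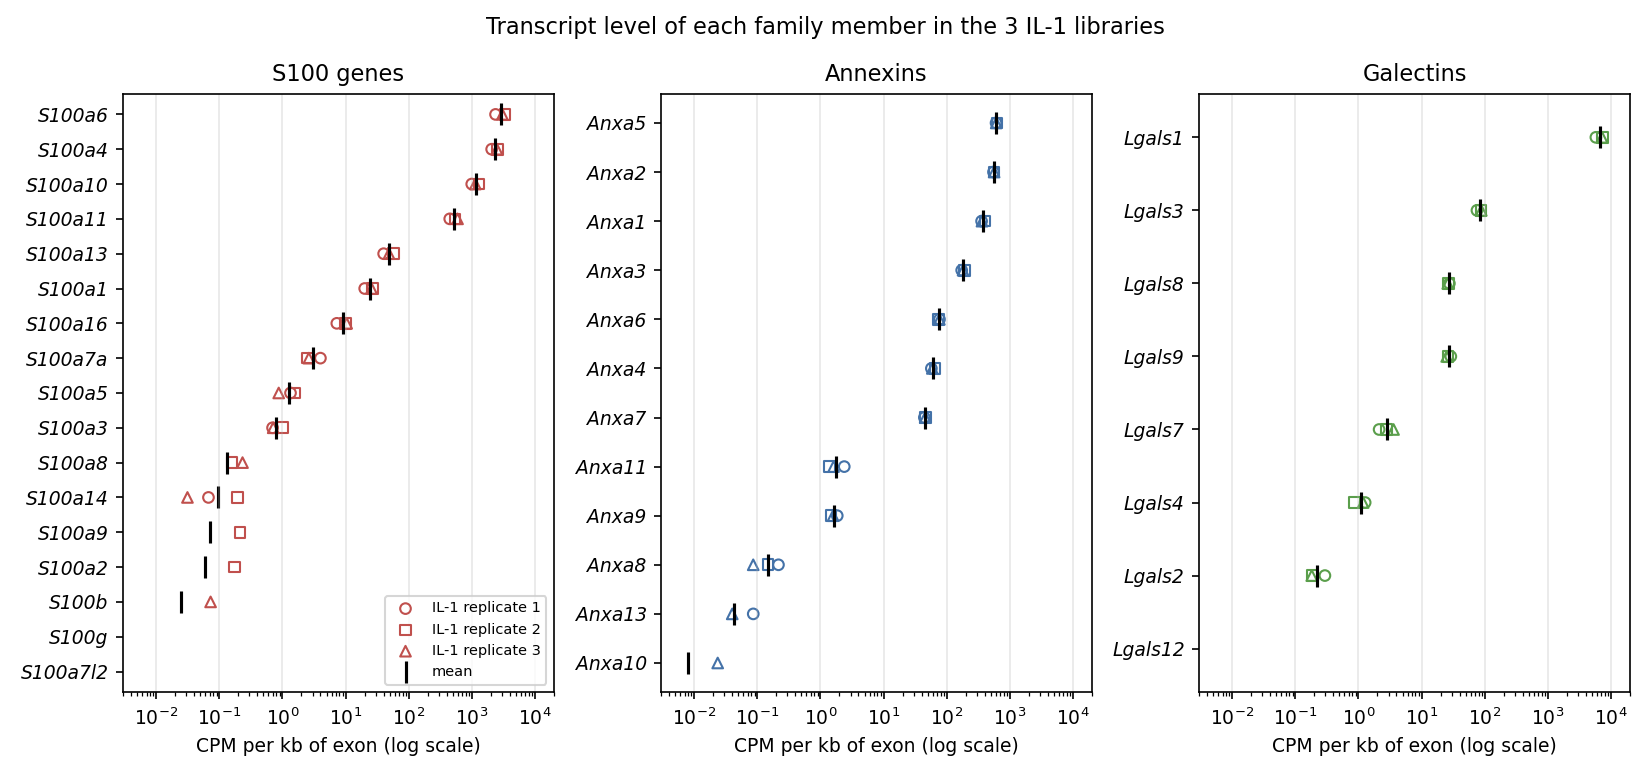
Level of every S100 gene, annexin and galectin in CPM per kb of merged exons (log axis), with 1 symbol per IL-1 library and a bar at the mean; a library with no count has no symbol, and S100g, S100a7l2 and Lgals12 had no count at all. In each family the detected members spread over several orders of magnitude, and the libraries lie close together for all but the lowest genes.

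The S100 family was led by 4 genes that encode partners of the cytoskeleton and of annexins. S100a6, which encodes calcyclin, had 3265, 4623 and 4194 CPM in replicates 1 to 3, and a level of 2946 ± 508 CPM per kb, or 5143.5 with the longest transcript. S100a4, long used as a fibroblast marker and known to bind non-muscle myosin, had 1211, 1486 and 1468 CPM, or 2377 ± 264 CPM per kb. Their library ranges per kb overlapped, but S100a4 lay below S100a6 within each library, at 0.868, 0.753 and 0.819 of it. With the longest transcript the mean of this ratio was 0.546 in place of 0.813. S100a10, which encodes the calcium-insensitive p11, had 1214, 1591 and 1383 CPM, or 1152 ± 156 CPM per kb. S100a11 had 229, 278 and 305 CPM, or 529.7 ± 74.9 CPM per kb. All 4 were lowest in replicate 1.

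Below S100a11, the next S100 gene per kb was 10.8-fold lower. S100a13, whose product takes part in the release of FGF1, had 28.7, 41.2 and 34.9 CPM and a level of 48.9 ± 8.73 CPM per kb. S100a1, best known from heart and skeletal muscle, had 14.0, 18.4 and 17.9 CPM, or 24.2 ± 3.51 CPM per kb, and S100a16 had 11.8, 16.0 and 16.8 CPM, or 9.20 ± 1.69 CPM per kb. S100a7a, a skin gene related to psoriasin, had 95, 62 and 67 counts and S100a3, a gene of the hair cuticle, 68, 102 and 75 counts. S100a7a was highest in replicate 1 and S100a3 lowest there. The 8 keratinocyte markers summed to between 7.86 and 9.27 CPM per library, most of it Krt10, and their part in these levels was not tested. Apart from S100a6 and S100a4, no detected S100 gene overlapped the range of its neighbour in the order of levels per kb.

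Most of the 8 undetected S100 genes are known from leukocytes, epithelia or nervous tissue. S100a8 and S100a9, which encode the neutrophil protein calprotectin, had 0, 2 and 3 counts and 0, 2 and 0 counts. The 8 neutrophil markers summed to between 0 and 0.522 CPM per library, with 5 of them at 0 throughout. S100a5, an olfactory neuron gene, came closest to detection with 10, 12 and 7 counts. The epithelial S100a14 had 2, 6 and 1 counts, S100a2 had 0, 1 and 0, and the astrocyte and Schwann cell gene S100b had 0, 0 and 2. S100g, which encodes the intestinal calcium carrier calbindin-D9k, and S100a7l2 had no count, which over the 3 libraries together allows up to 0.0556 CPM.

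By position, 15 of the 17 S100 genes lie on chromosome 3 in GRCm38, and S100b and S100g lie on chromosomes 10 and X. A first block of 12 genes runs from S100a1 to S100a9 (chr3:90511034-90695721) over 185 kb. After 2825 kb follow S100a11 (chr3:93520496-93526288) and S100a10 (chr3:93555117-93564645), 28.8 kb apart, while S100a7l2 stands alone between the blocks. Along the first block, levels changed sharply from gene to gene. S100a1 and S100a13, in opposite orientation with RefSeq models that overlap by 98 bases, were both detected, and the next gene, S100a14, was not. S100a16 was detected, as was S100a3, whose RefSeq model spans S100a2, a gene with 1 count in all.

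The highest and the nearly silent genes were direct neighbours. S100a4 (chr3:90603770-90606045), S100a5 (chr3:90606480-90611784) and S100a6 (chr3:90612894-90614414) lie within 10.6 kb on the same strand, with 434 and 1109 bases between them. S100a4 and S100a6 together held 75.6% ± 0.727 of the CPM of the chromosome 3 S100 genes, and S100a10 with S100a11 held 23.3% ± 0.712. S100a5 between them had 29 counts over all libraries, and S100a6 was 1781, 2203 and 3517 times as high per kb in replicates 1 to 3. These ratios rest on 7 to 12 counts of S100a5 per library and on the exon model, since their mean was 2500.2 with merged exons and 4355 with the longest transcript. Beyond S100a6, S100a7a had 4.18 ± 1.15 CPM, and S100a8 and S100a9 were near 0.

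**Figure D2:**
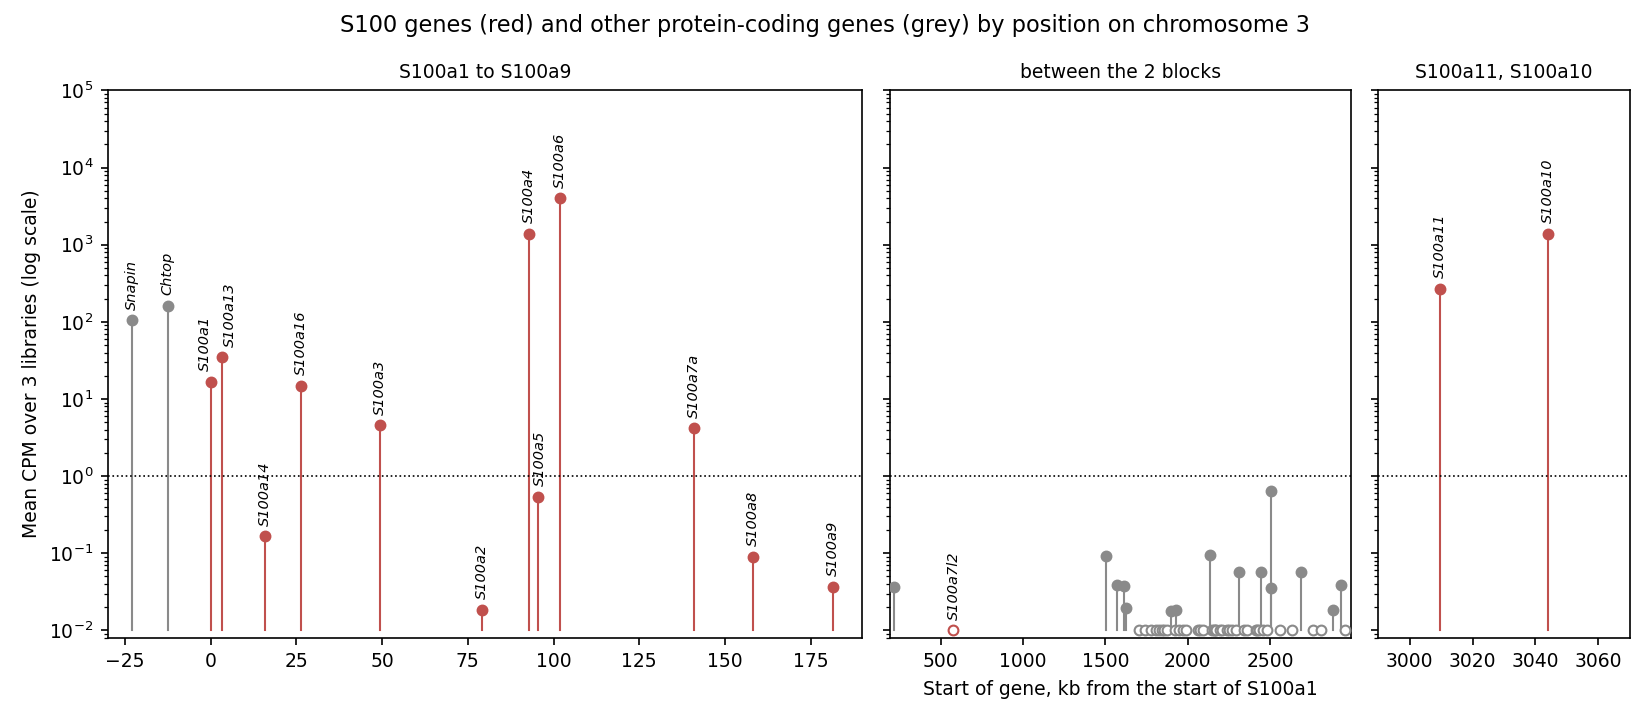
Mean CPM over the 3 IL-1 libraries (log axis) of S100 genes (red) and other protein-coding genes (grey), by the start of each gene in kb from the start of S100a1, in 3 stretches with their own scale; open circles are genes with no count and the dotted line is 1 CPM. S100a4 and S100a6 rise above their neighbours in the first block, all 52 other genes between the blocks lie below 1 CPM, and S100a11 and S100a10 are high again.

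The stretch between the blocks holds the epidermal differentiation genes, which build the cornified envelope of skin, such as Lor, Ivl, Flg and the Sprr and Lce genes. None of its 52 protein-coding genes other than S100a7l2 was detected, and 37 had no count. The highest was Crct1 at 0.643 CPM, and all 52 together had 68 counts over the 3 libraries. S100a10 and S100a11, at 1396 ± 189 and 271 ± 38.3 CPM, lie on the far side of this stretch. On the near side of the first block, Chtop and Snapin, genes of mRNA export and vesicle fusion, were at 163 and 106 CPM, above S100a1.

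Promoters of the neighbouring genes are shown because levels in the block differ so strongly over short distances. The sequences are from RefSeq on GRCm38.p6, plus strand, from 250 bases before to 50 after the start site: chr3:90603520-90603819 for S100a4, chr3:90608272-90608571 for S100a5, chr3:90612644-90612943 for S100a6 and chr3:90668821-90669120 for S100a8. The S100a5 window lies inside the gene model used above, which starts at 90606480. It is therefore not the stretch next to the end of S100a4. Capitals mark matches to the letters of a TATA box (TATAAA, either strand).
S100a4: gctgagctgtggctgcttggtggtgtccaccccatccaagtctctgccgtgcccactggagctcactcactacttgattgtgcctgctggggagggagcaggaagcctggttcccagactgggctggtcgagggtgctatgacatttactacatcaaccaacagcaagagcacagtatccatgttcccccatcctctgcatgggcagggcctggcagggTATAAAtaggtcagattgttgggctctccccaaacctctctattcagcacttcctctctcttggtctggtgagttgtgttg
S100a5: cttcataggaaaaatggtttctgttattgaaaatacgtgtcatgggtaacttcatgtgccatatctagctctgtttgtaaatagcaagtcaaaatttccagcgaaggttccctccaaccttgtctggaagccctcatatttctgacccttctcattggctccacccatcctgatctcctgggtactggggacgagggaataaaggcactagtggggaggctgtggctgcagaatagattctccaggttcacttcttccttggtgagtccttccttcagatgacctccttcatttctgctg
S100a6: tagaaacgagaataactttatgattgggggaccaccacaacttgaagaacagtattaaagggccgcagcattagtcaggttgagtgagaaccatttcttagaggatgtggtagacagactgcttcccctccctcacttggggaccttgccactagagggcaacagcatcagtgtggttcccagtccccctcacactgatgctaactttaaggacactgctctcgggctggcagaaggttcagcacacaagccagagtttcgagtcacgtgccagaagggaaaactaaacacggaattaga
S100a8: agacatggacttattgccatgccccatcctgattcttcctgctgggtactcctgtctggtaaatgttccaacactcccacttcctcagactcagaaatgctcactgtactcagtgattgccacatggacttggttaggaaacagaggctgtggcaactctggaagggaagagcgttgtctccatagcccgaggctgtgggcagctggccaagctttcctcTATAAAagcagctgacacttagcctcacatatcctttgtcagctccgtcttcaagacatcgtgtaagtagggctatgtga

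The abundant S100a4 and the almost silent S100a8 both had TATAAA, with its first base at -31 and -30, while the abundant S100a6 and the low S100a5 had none. Of the 8 detected S100 genes with a promoter entry, 2 had TATAAA (S100a3 and S100a4), and of the 6 others 4 did (S100a7l2, S100a8, S100a9 and S100g). Only those of S100a4, S100a8 and S100a7l2 (-29) lay near 30 bases upstream, where a TATA box works; that of S100a3 began at -52 and those of S100a9 and S100g at 0, the start site itself. Among all 32851 promoters of the table, 13.6% held TATAAA, as did 9 of the 39 entries whose symbols match the rule. These values count promoter entries, while a gene above counted once if any of its entries matched. An AP-1 site (TGANTCA, either strand), present in 7.81% of all promoters, was found in S100a11, S100a16 and Anxa2, which were detected, and in S100a7l2 and Anxa10, which were not. The kappaB motif, searched on both strands and present in 8.46% of all promoters, was in none of the 14 S100 genes with an entry and was found in Anxa4, Lgals3 and Lgals8. Among annexins, Anxa1, Anxa2 and Anxa10 had TATAAA. No matches to different motifs overlapped in these genes. Like that of S100a5, the windows of S100a3, S100a16, S100a7l2 and Lgals8 lay inside the gene models used for position. The positions of their matches are therefore counted from a start site within the model. In all, 31 of the 39 genes had an entry.

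Annexins were more even than the S100 genes, and 7 of the 12 stood above 100 CPM. Anxa2, whose product links membranes to actin, had 2065, 2090 and 2114 CPM, the highest read count of the family. Per kb of merged exons it stood at 560 ± 6.54, just below Anxa5, which binds phosphatidylserine and is used as a probe of dying cells. Anxa5 had 1080, 1113 and 1087 CPM, or 615 ± 9.69 CPM per kb, with no overlap between the libraries of the 2 genes. This order depends on the exon model: with the longest transcript in place of merged exons, Anxa5 was at 0.689 of Anxa2 and also fell below Anxa1. Anxa1, which encodes a glucocorticoid-regulated inhibitor of inflammation, had 1044, 1184 and 1059 CPM, or 376 ± 26.4 CPM per kb, and Anxa3 had 632, 695 and 664 CPM, or 182 ± 8.69 CPM per kb.

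Anxa6, which carries a doubled core domain, had 226, 218 and 225 CPM. Anxa4 had 266, 303 and 276 CPM, and Anxa7, or synexin, 266, 277 and 274 CPM. Per kb of merged exons these 3 stood at 76.1 ± 1.44, 60.6 ± 4.05 and 45.5 ± 0.940, and with the longest transcript Anxa6 moved behind the others. The next gene, Anxa11, was 25.3-fold lower per kb than Anxa7. Anxa11, whose product tethers RNA granules to lysosomes, had 170, 104 and 124 counts, and Anxa9, an atypical member, 66, 55 and 61 counts; both were highest in replicate 1 and their ranges per kb overlapped. Anxa8 had 7, 5 and 3 counts, Anxa13 had 2, 0 and 1, and Anxa10, known from stomach, had 1 count in replicate 3.

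**Figure D3:**
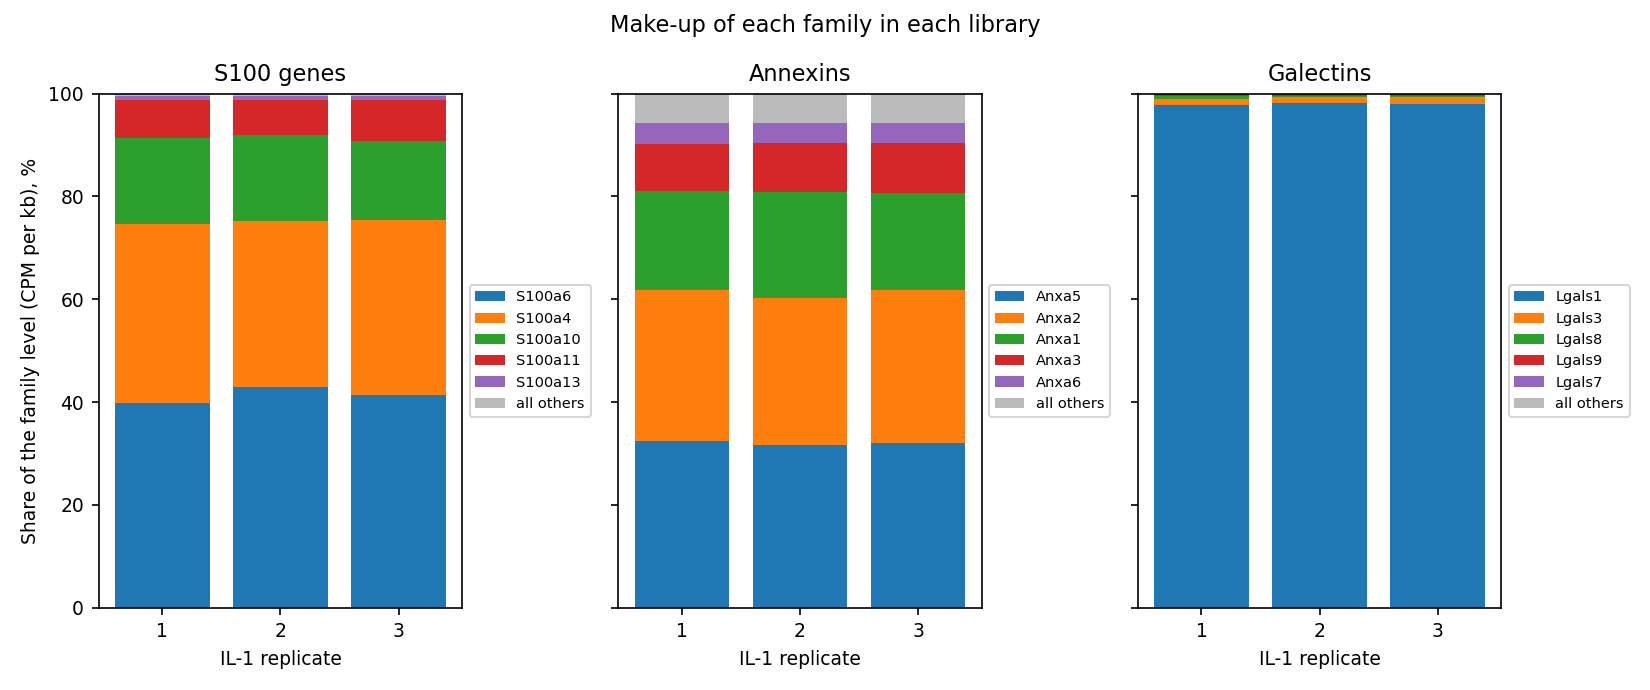
Share of each family's summed level (CPM per kb of merged exons) held by its 5 highest members and by all others, as stacked bars from 0 to 100% for each IL-1 library. Lgals1 fills nearly the whole galectin bar, at 97.7% to 98.1%, while the highest S100 gene holds 39.9% to 42.9% and the highest annexin 31.7% to 32.4%.

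Galectins were a family of 1 dominant gene. Lgals1, which encodes the dimeric galectin-1, had 5245, 6619 and 6565 CPM, or 6803 ± 862 CPM per kb, and replicate 1 was the low one. It held 97.9% ± 0.201 of the summed level of the family per kb and was 76.8, 83.6 and 82.2 times as high as Lgals3. Lgals3, the only chimera-type galectin and a marker of activated macrophages, had 140, 163 and 164 CPM, or 83.9 ± 7.20 CPM per kb. The 7 macrophage markers summed to between 18.2 and 27.6 CPM per library, below Lgals3 alone in each, and their part in its level was not tested. The tandem-repeat type, with 2 binding domains in 1 chain, took 0.801% ± 0.152 of the family level over its 4 genes.

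Within that type, Lgals8 and Lgals9 could not be ranked. Lgals8, whose product marks broken vesicles for autophagy, had 102, 98.9 and 96.1 CPM, or 26.8 ± 0.788 CPM per kb. Lgals9, which encodes a ligand of TIM-3, had 62.2, 56.0 and 53.6 CPM, or 26.8 ± 2.10 CPM per kb, and their ranges overlapped. Lgals4, a gut gene, had 51, 36 and 51 counts and lay near the limit of detection, at 2.56 ± 0.508 CPM, while the 7 gut epithelial markers summed to at most 0.580 CPM. Lgals7, a gene of stratified epithelia, had 34, 47 and 62 counts. Lgals2 had 3, 2 and 2 counts, and the adipocyte gene Lgals12 had none. The binding partner Lgals3bp had 247, 181 and 213 counts, or 11.9 ± 2.19 CPM, and S100pbp 147, 104 and 130 counts, or 7.09 ± 1.39 CPM.

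Members of known complexes were set side by side per kb of merged exons. S100a10 was 1.81, 2.34 and 2.01 times as high as Anxa2 in replicates 1 to 3, so per kb the p11 transcript exceeded that of its annexin partner in each library. By CPM without length the order was the reverse in each library. S100a10 had 1214, 1591 and 1383 CPM against 2065, 2090 and 2114 for Anxa2. S100a11 was 1.25, 1.34 and 1.64 times as high as its partner Anxa1, but with the longest transcript the ratio was 0.811. Anxa11, a binding partner of calcyclin, lay far below S100a6, which had 1003 to 2433 times its level. These are ratios of transcripts and say nothing of the proteins.

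Of 22 other genes listed as partners, 15 were detected. Cacybp, the calcyclin-binding protein, had 449.98 ± 16.3 CPM, and Ahnak, a giant scaffold bound by annexin A2 and S100A10, 496 ± 17.9 CPM. Pdcd6 and Sri, calcium sensors that bind annexin A7 or annexin A11, had 212 ± 11.4 and 255 ± 15.4 CPM. The repair protein genes Myof and Dysf had 253 ± 12.9 and 23.4 ± 0.614 CPM, and Trim72, their muscle partner, had 4 counts in all. The glycoproteins of lysosomes that galectins bind were high, with Lamp1 at 1192 ± 28.1 CPM and Lamp2 at 602 ± 8.16 CPM. Trim16, a partner of galectin-3 at damaged lysosomes, was at 80.3 ± 7.95 CPM, whereas Calcoco2, the partner of galectin-8, had 0, 6 and 2 counts.

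Among the genes of this list, receptors for the released proteins were low or near 0, apart from Bsg. Ager, which encodes RAGE, had 3, 5 and 10 counts. Tlr4 was detected, with 140, 132 and 156 counts, or 7.94 ± 0.571 CPM. Fpr1 had 1 count and Fpr2, the receptor of annexin A1, had none. Havcr2, which encodes TIM-3, had 11, 1 and 1 counts, most of them in replicate 1. Bsg, which encodes basigin, a membrane protein bound by S100A9, was at 866 ± 49.4 CPM.

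The families differed in how far replicate 1 stood from the others. Of the 9 detected S100 genes 8 were lowest in replicate 1, of the 9 annexins 6 and of the 6 galectins 3, where 29.8% of all detected protein-coding genes were. With the binding partners, 9 of the 26 detected genes were highest in replicate 1, beside 46.1% of all detected protein-coding genes. The median log2 ratio of replicate 1 to the mean of the other libraries, on log2(CPM + 0.5), was -0.34 for the S100 genes, -0.03 for the annexins and -0.08 for the galectins, beside 0.05 for all detected protein-coding genes. Among members above 100 CPM, the coefficient of variation ran from 11.1% to 17.2% for the 4 S100 genes and from 1.17% to 7.03% for the 7 annexins, and the median over the 2288 protein-coding genes at that level was 5.38%.

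Exon length moved with this difference. The 4 abundant S100 genes had 511 to 1367 bases of merged exons and the 7 abundant annexins 1777 to 5991. Over all detected protein-coding genes the median log2 ratio of replicate 1 was -0.24 below 1 kb (180 genes), -0.11 from 1 to 2 kb (1031 genes), 0.01 from 2 to 4 kb (3167 genes) and 0.09 above (6326 genes), and 80.0%, 59.8%, 36.3% and 20.3% were lowest in replicate 1. Of the 26 detected genes of the symbol rule, the 6 below 1 kb had a median of -0.36 and all were lowest there, as were 5 of the 6 from 1 to 2 kb, the exception being S100a7a. From 2 to 4 kb 3 of 9 were, with a median of 0.06. Above 4 kb 3 of 5 were, with a median of -0.05, so by merged exons these longest members did not follow the order of the length classes. That class depends on the exon model. By longest transcript S100a3, Anxa4, Anxa7 and Anxa11 had 2623 to 3143 bases, and only the binding partner S100pbp, at 4426, stayed above 4 kb. The medians and shares of all genes were not computed by longest transcript, so members sorted that way have no matching classes. The part of exon length in the differences between members was not tested.

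**Figure D4:**
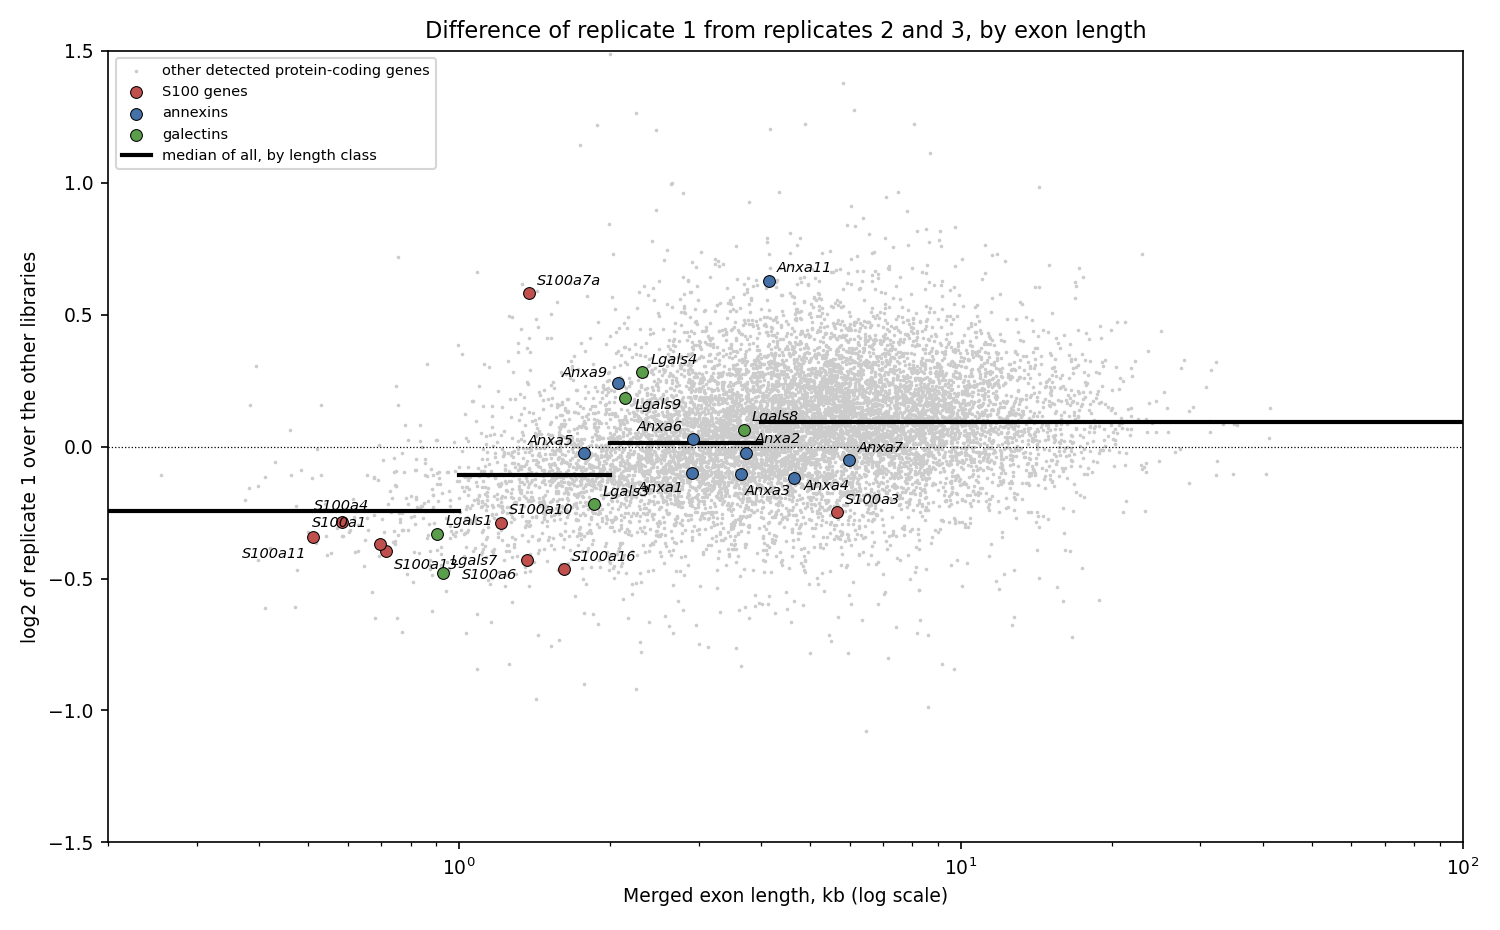
Log2 ratio of replicate 1 to the mean of replicates 2 and 3 against merged exon length (log axis) for detected protein-coding genes (grey) and detected S100 genes, annexins and galectins; black lines are medians of all genes in 4 length classes, and 1 gene outside the ratio axis and 2 outside the length axis are not drawn. The medians of genes under 2 kb lie below 0, as do Lgals1 and most S100 genes, while S100a7a and Anxa11 lie highest among the members, at 0.58 and 0.63.

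Some counts are less certain than their spread shows. In GENCODE M21, 302 bases, or 51.7% of the exons of S100a4, also belong to the gene model Gm42674, which extends into S100a3 as well. No counted gene ID matched the symbol Gm42674, so whether it took reads from S100a4 cannot be told. On the same strand, Anxa9 shares 94 exon bases with 6330562C20Rik and Anxa3 112 with Gm42603. On the opposite strand, Lgals8 shares 155 exon bases with Heatr1, a gene at 81.1 CPM. Anxa9, at 3.38 CPM, shares 71 with Mindy1, at 49.1 CPM, and Lgals2 38 with Cdc42ep1, at 98.2 CPM. The RefSeq models of S100a1 and S100a13, at 16.8 and 35.0 CPM, overlap by 98 bases on opposite strands, though their GENCODE exons do not. Strand use in counting is not given in the sources used here, so reads of pairs on opposite strands cannot be told apart. The processed copy S100a11-ps had 0, 1 and 2 counts.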

How the data were processed

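Reads were sequenced from polyA RNA of RelA-/- Rela-DsRed NIH3T3 cells, lysed and reverse transcribed without RNA extraction and pre-amplified for 10 cycles, per the labels' protocols. The deposited tables hold raw counts per Entrez gene ID for each library. CASAVA, STAR and featureCounts with build mm10 were used, per the submitters' processing notes; the sources used here name no version, annotation or strand setting. No molecular identifiers are mentioned; limits set by counts cover only counting error.

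Entrez IDs were matched to symbols, gene types and coordinates in RefSeq GRCm38.p6 (25275 of 27179 IDs matched); exon lengths came from GENCODE M21. CPM used each library's total count. The detection minimum was 1 CPM in each library. A count of 0 was taken to allow 3 counts. TMM and relative log expression factors came from edgeR 4.0.16 in R 4.3.3; Python 3.11.15, numpy 2.4.6 and pandas 2.3.3 did the rest. Factors and log2 ratios were tested on simulated data. No test between groups was possible. Every gene of the symbol rule is reported. The members, lists and settings were chosen with earlier results of these data known; the marker and partner lists are background, not evidence.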

Additional observations from a re-analysis of the deposited data

How the results depend on the processing

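No paired analysis was possible because the other groups' tables are identical to that of IL-1 replicate 3. The numbers of detected members, 9, 9 and 6, stayed within 1.5 times under all 23 alternatives tried (0.5 or 2 CPM, TMM or relative log expression factors, a library left out, binding partners counted in); at 2 CPM 4 galectins remained, Lgals4 and Lgals7 falling below. Summed levels moved by less than 1 SD with other factors; without 1 of the 3 libraries a mean cannot shift beyond 1 SD by construction. The share of the highest member depends on length by construction: with the longest transcript it was 48.4% for S100a6, 31.5% for Anxa2 in place of Anxa5 and 97.6% for Lgals1, and without length 56.1%, 36.5% (Anxa2) and 95.0%. With the longest transcript, Anxa5 over Anxa2 turned to 0.689 and S100a11 over Anxa1 to 0.811. The mean of S100a6 over S100a5 moved to 4355 and that of S100a4 over S100a6 to 0.546. Lgals1 kept rank 1 with the longest transcript but ranked 5 without length. The median log2 ratios of replicate 1 kept their sign. Alternatives for these ratios, the rank and the binding partners were chosen after seeing the data. Depth limits genes below 1 CPM, which hold few reads each.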
